A study of Mus musculus with 12 samples.

Results

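Regulatory T cell genes were followed across CD4+ T cells of 4 groups of female mice, with 5 of the 12 samples labelled as sorted to lack folate receptor 4 (FR4), a surface protein by which regulatory T cells can be removed. The set holds 10 genes known for regulatory T cells, namely Foxp3, Ikzf2, Ikzf4, Ctla4, Tnfrsf18, Nrp1, Izumo1r, Gpr83, Lrrc32 and Itgae. Izumo1r, formerly Folr4, encodes FR4 itself. Every probe set that the array's annotation assigns to 1 of these genes alone was taken, which gave 18 probe sets of 9 genes, out of 34945 such probe sets of 18193 genes in all. Nrp1 had 4 of them, Ikzf2 and Ikzf4 had 3 each, Gpr83 and Itgae had 2 each, and Foxp3, Ctla4, Tnfrsf18 and Izumo1r had 1 each. Lrrc32 was not analysed here.

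The series is a set of 12 Affymetrix Mouse Genome 430 2.0 arrays, 3 in each group. SKG samples were FR4-negative CD4+ lymph node cells of 40-week-old SKG mice, a BALB/c-background strain that carries a mutant Zap70, the kinase next to the T cell receptor, and is known for autoimmune arthritis. BALB samples came from BALB/c mice of the same age. Both groups are labelled as stimulated with a phorbol ester (PMA) and ionomycin. BALB replicates 2 and 3 were FR4-negative lymph node cells. BALB replicate 1 is labelled as CD4+ cells of spleen and lymph node, with no FR4 sort, although the design text describes all BALB cells as FR4-negative.

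The other groups were CD4+ T cells from the spleen of 7-week-old mice, taken 7 days after the cells had been transferred into hosts that lack Rag2 and so make no T or B lymphocytes of their own. In the IFN-γ-deficient transfer, Ifng-knockout BALB/c cells were given to Rag2-knockout BALB/c hosts. In the IL-6-deficient transfer, Il6-knockout BALB/c cells were given to hosts lacking both Il6 and Rag2, so donor and host both lacked IL-6 in that group only. No FR4 sort and no stimulation is labelled for these 6 samples. No sample is a sorted FR4-positive fraction. Whether the replicates are separate animals is not labelled. The p-values therefore reflect how far these arrays differ among themselves, and part of that may be technical.

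Regulatory T cells are CD4+ T cells that restrain other immune cells, and the transcription factor Foxp3 is needed for their development and function. Helios and Eos, encoded by Ikzf2 and Ikzf4, are zinc finger factors of the Ikaros family found in many of them. Several of the surface proteins that mark regulatory T cells, CTLA-4 and GITR among them, are also induced on conventional T cells after activation, so RNA of these genes does not by itself name a cell type.

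Levels are given on the scale log2(intensity + 16) after quantile normalization of the 12 arrays together, and a difference on this scale is a log2 fold change that understates the change of dim genes. A gene was represented by its brightest probe set. The threshold was an adjusted p under 0.05 in limma, and genes entered a test if they averaged at least 4.80, the 40th percentile over probe sets, on the 6 arrays compared. All 9 genes reached that level, and each of the 4 group means of each gene lay above it.

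Promoter windows of 4 genes are shown because they belong to the defining factor, the sort receptor, a gene with a large rise and a gene with a lower mean in SKG cells. The labelled stimulus acts through NFAT and AP-1 factors, which is why their motifs were searched. The sequences are from RefSeq (GRCm38.p6), cover 300 bases around a gene start and run 5′ to 3′ on the gene's strand. Foxp3 has windows at chrX:7579426-7579725 (plus strand) and chrX:7580233-7580532 (plus strand). Ctla4 lies at chr1:60908775-60909074 (plus strand), Tnfrsf18 at chr4:156026072-156026371 (plus strand) and Izumo1r at chr9:14903718-14904017 (minus strand). Capitals mark matches on either strand to the NFAT core (GGAAA) or the STAT motif (TTCNNNGAA).
Foxp3 first window: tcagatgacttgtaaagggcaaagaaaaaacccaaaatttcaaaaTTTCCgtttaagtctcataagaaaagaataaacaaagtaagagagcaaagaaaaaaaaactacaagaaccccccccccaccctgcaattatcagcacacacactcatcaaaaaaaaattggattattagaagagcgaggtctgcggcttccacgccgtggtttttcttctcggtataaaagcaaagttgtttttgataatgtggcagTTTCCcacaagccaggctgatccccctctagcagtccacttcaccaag
Foxp3 second window: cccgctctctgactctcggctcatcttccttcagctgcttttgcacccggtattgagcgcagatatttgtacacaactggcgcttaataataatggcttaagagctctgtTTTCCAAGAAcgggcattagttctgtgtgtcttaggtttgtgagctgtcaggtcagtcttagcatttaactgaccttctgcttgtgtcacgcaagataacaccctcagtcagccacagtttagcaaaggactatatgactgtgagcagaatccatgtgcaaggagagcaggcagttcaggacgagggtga
Ctla4: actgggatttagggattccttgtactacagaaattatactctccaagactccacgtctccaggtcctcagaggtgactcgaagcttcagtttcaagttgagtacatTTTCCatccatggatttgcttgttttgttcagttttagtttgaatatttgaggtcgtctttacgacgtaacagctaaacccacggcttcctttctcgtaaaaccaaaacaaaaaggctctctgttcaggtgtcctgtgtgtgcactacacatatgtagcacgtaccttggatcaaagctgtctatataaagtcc
Tnfrsf18: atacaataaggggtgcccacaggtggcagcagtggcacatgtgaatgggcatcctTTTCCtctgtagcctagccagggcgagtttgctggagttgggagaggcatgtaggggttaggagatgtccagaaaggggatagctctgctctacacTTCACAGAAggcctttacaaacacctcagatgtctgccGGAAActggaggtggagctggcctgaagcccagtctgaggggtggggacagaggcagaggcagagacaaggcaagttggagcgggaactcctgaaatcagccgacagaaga
Izumo1r: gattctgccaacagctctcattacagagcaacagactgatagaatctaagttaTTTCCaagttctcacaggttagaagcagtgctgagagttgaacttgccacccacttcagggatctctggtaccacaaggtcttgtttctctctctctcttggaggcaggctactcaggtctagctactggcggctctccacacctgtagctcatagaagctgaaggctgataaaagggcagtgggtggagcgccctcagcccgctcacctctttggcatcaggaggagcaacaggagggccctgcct

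The first Foxp3 window held 2 NFAT core matches, and the second held 1 that overlaps its STAT match. Tnfrsf18 had 2 NFAT core matches and 1 STAT match, and Ctla4 and Izumo1r had 1 NFAT core match each. No window held an AP-1 (TGANTCA) or a forkhead (GTAAACA) match. Over all 32851 windows of 300 bases, 61.3% held the NFAT core, 8.3% the STAT motif, 7.81% the AP-1 motif and 3.65% the forkhead motif. Windows were also listed for Nrp1, with 1 NFAT core match, and Gpr83, with none. Ikzf2, Ikzf4 and Itgae are named only.

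The first comparison asked how gene expression differs between SKG and BALB cells. Of the 9 genes, 7 were higher in SKG cells at the threshold, 0 were lower and 2 did not pass. Among the 11595 genes in this test 28.8% passed, 16.5% in the higher and 12.3% in the lower direction. The genes that rose were Foxp3, Ikzf2, Ikzf4, Ctla4, Nrp1, Izumo1r and Itgae, and the other two, Tnfrsf18 and Gpr83, had lower means in SKG cells. The median log2 fold change of the 9 genes was 0.86, beside 0.06 over all genes tested. For the 7 that rose, the 3 SKG arrays all lay above the 3 BALB arrays, a pattern that 25.6% of all genes tested showed. In such samples a change in the share of cells of a type and a change in RNA per cell cannot be told apart.

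**Figure D1:**
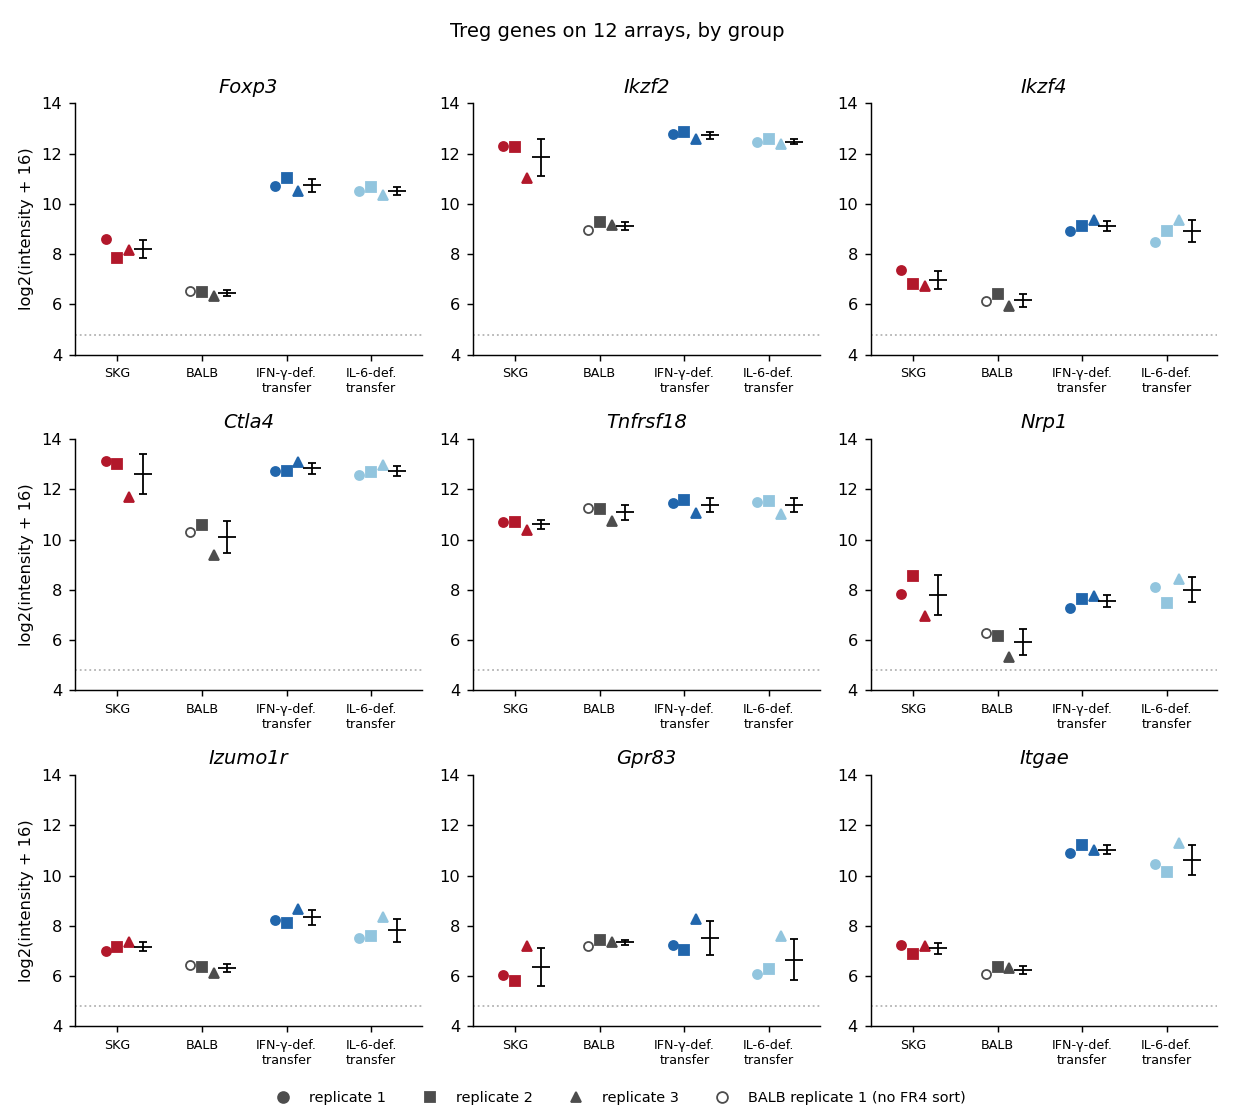
Level of each of the 9 genes on every array, as log2(intensity + 16) after normalization, with 3 arrays per group in the order SKG, BALB, IFN-γ-deficient transfer and IL-6-deficient transfer. Points are arrays, bars are the mean ± SD, the open circle is BALB replicate 1 and the dotted line is the level of 4.80 used as a filter. SKG arrays lie above BALB arrays for Foxp3, Ikzf2, Ikzf4, Ctla4, Nrp1, Izumo1r and Itgae, and below them for Tnfrsf18.

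Izumo1r, the gene of the receptor used for the sort, was measured on all arrays. In replicates 1 to 3 its level was 6.98, 7.14 and 7.35 for SKG, against 6.43, 6.38 and 6.13 for BALB. The groups did not overlap, and BALB replicate 1, labelled without the sort, was the highest of the BALB arrays by a small margin after normalization. As deposited, BALB replicate 3, the BALB array with the highest median intensity, was the highest, at 70.8 against 63.9 for BALB replicate 1. The mean of Izumo1r was 7.16 ± 0.18 in SKG cells and 6.31 ± 0.16 in BALB cells (SD, n = 3 each), a log2 fold change of 0.84 ± 0.18 (SE) with a limma adjusted p of 0.0087. RNA of the receptor was thus above the filter level in every FR4-negative sample. Surface protein, on which the sort acts, was not measured here.

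Foxp3, which gives regulatory T cells their identity, stood at 8.59, 7.86 and 8.18 in SKG cells, against 6.52, 6.50 and 6.33 in BALB cells. The lowest SKG array was well above the highest BALB array. As deposited, its intensities were 321.5, 201 and 316.4 in SKG cells, against 69.5, 66.1 and 83.3 in BALB cells, with the same separation. Its log2 fold change was 1.76 ± 0.21, or 3.38-fold, with a limma adjusted p of 0.00072.

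Ikzf2, the gene of Helios, had levels of 12.30, 12.27 and 11.01 in SKG cells, against 8.95, 9.27 and 9.15 in BALB cells. SKG replicate 3 was lower than the other SKG arrays but still far above every BALB array. The log2 fold change of 2.74 ± 0.31 (limma adjusted p = 0.00059) was the largest of the 9 genes. With the median of its 3 probe sets it was 1.15, and the call was lost (adjusted p = 0.052). Ikzf4, the gene of Eos, gave 7.38, 6.82 and 6.72 in SKG cells, against 6.13, 6.40 and 5.92 in BALB cells. Its groups came close to each other, and the log2 fold change was 0.82 ± 0.23 with a limma adjusted p of 0.027. That call was lost without SKG replicate 1, SKG replicate 2, BALB replicate 1 or BALB replicate 3, with adjusted p of 0.10, 0.054, 0.080 and 0.069 in that order. With a constant of 64 in place of 16 the log2 fold change of Ikzf4 was 0.55.

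Ctla4 encodes an inhibitory receptor that removes the costimulatory ligands CD80 and CD86 from antigen-presenting cells. It reached 13.15, 13.03 and 11.70 in SKG cells, against 10.32, 10.60 and 9.40 in BALB cells. Replicate 3 was the lowest array within both groups, and the groups did not overlap. Ctla4 thus had a log2 fold change of 2.52 ± 0.41, or 5.72-fold, with a limma adjusted p of 0.0026.

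Tnfrsf18 encodes GITR, a costimulatory receptor of the tumour necrosis factor receptor family. Its levels were 10.72, 10.72 and 10.39 in SKG cells, against 11.27, 11.24 and 10.76 in BALB cells. Every SKG array was below every BALB array, as was the case for 19% of all genes tested, although the gap between SKG replicate 1 and BALB replicate 3 was very small. The log2 fold change of -0.48 ± 0.17 did not pass (limma adjusted p = 0.065). With the replicate number as a block it did, with an adjusted p of 0.0082, and without BALB replicate 3 the log2 fold change was -0.64 with an adjusted p of 0.014.

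Nrp1 encodes neuropilin, a coreceptor for semaphorins and vascular endothelial growth factor that is carried by thymus-derived regulatory T cells. It measured 7.85, 8.57 and 6.96 in SKG cells, against 6.30, 6.17 and 5.33 in BALB cells. Replicate 3 was again the lowest array in either group, and the groups still did not overlap. This gave a log2 fold change of 1.86 ± 0.40 and a limma adjusted p of 0.0094.

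Itgae encodes the integrin chain CD103, which binds E-cadherin on epithelium. Its levels were 7.24, 6.86 and 7.20 in SKG cells, against 6.06, 6.35 and 6.32 in BALB cells. The groups did not overlap, and the log2 fold change was 0.86 ± 0.18 with a limma adjusted p of 0.0093. Without normalization the log2 fold change was 0.83 and the adjusted p 0.0502.

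Gpr83, a G protein-coupled receptor gene known from mouse regulatory T cells, differed in its replicates. It gave 6.05, 5.81 and 7.21 in SKG cells, against 7.21, 7.44 and 7.36 in BALB cells. SKG replicates 1 and 2 were far below the BALB arrays, whereas SKG replicate 3 reached the level of BALB replicate 1. The log2 fold change of -0.98 ± 0.33 did not pass (limma adjusted p = 0.055). The replicate block brought it past the threshold, at an adjusted p of 0.024. Without SKG replicate 3 it was -1.40 with an adjusted p of 0.00087. Counted with the block, 7 of the 9 genes thus rose and 2 fell in SKG cells, whereas across the whole test 20.9% of genes rose and 15.4% fell.

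**Figure D2:**
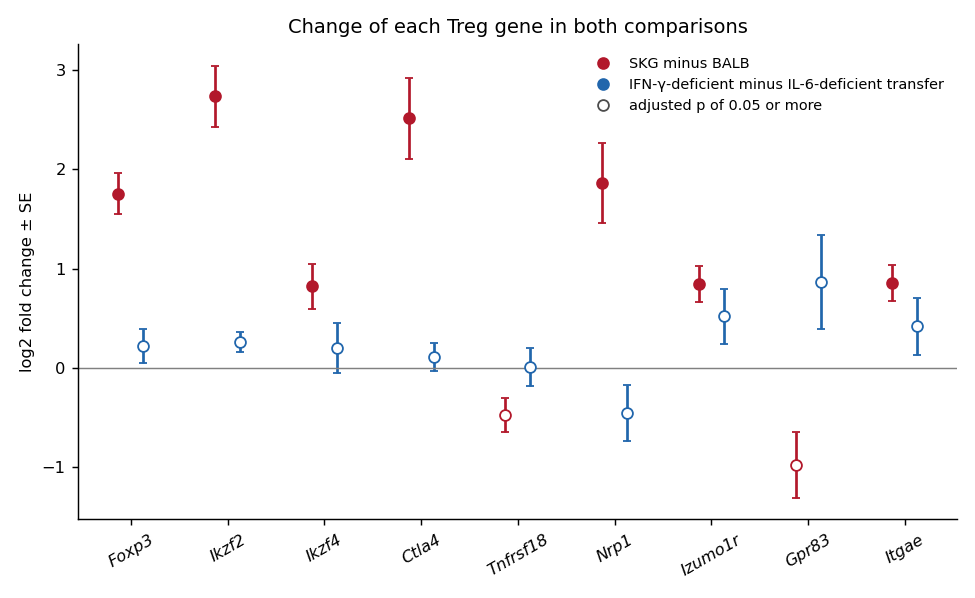
Log2 fold change ± SE of the 9 genes for SKG minus BALB and for IFN-γ-deficient minus IL-6-deficient transfer, from limma fits on 6 arrays each. Filled points have an adjusted p under 0.05 and open points do not. In SKG minus BALB, 7 genes are filled, from 0.82 for Ikzf4 to 2.74 for Ikzf2, and in the transfer comparison none is.

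**Figure D3:**
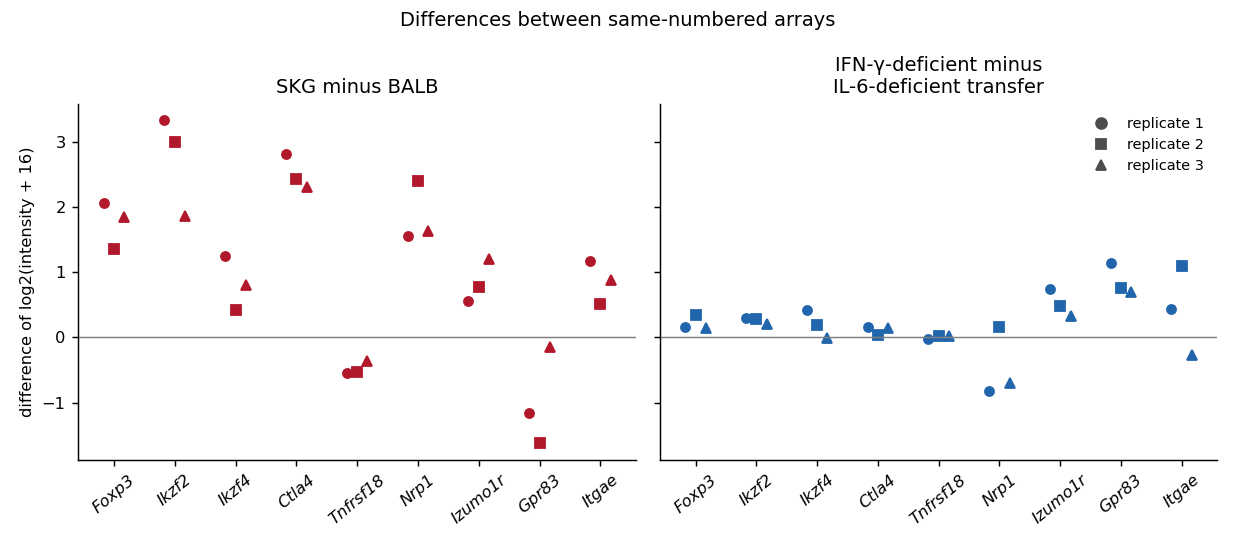
Differences between arrays of the same replicate number, on the log2(intensity + 16) scale, for each gene in both comparisons. The SKG minus BALB difference is above 0 in 3 of 3 numbers for 7 genes and below 0 in 3 of 3 for Tnfrsf18 and Gpr83. Except for Gpr83 the groups do not overlap, so these signs are the same whichever arrays are matched and add no separate support.

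The plot of same-numbered arrays shows SKG minus BALB differences that varied in evenness between genes, and equal numbers are not shown to be pairs. The differences ran from 1.87 to 3.34 for Ikzf2, from 0.41 to 1.25 for Ikzf4 and from 1.55 to 2.41 for Nrp1. For Izumo1r they ran from 0.55 to 1.21, for Itgae from 0.51 to 1.18 and for Tnfrsf18 from -0.55 to -0.36. For Ctla4 they were 2.82, 2.42 and 2.30 in replicates 1 to 3, close to each other although its levels were lowest in replicate 3 of both groups. For Foxp3 they were 2.07, 1.36 and 1.85. For Gpr83 they were -1.16, -1.63 and -0.15, with replicate 3 near 0.

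Of the 9 genes 5 had more than 1 probe set, and 17 of the 18 probe sets reached the filter level. Tested one by one, 12 were higher and 1 was lower in SKG cells, beside 12.2% and 11.6% of all 21348 probe sets tested. The exception to the filter was 1 Ikzf4 probe set that ran from 4.07 to 4.79 over all 12 arrays. One probe set each of Ikzf2 and Nrp1 was below the filter level on all BALB arrays and was tested only because of its SKG level, so its difference is not separate support.

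All 4 Nrp1 probe sets rose, with log2 fold changes from 1.09 to 1.86. The Ikzf2 probe sets gave 2.74, 1.87 and 1.15, and the last did not pass (limma adjusted p over probe sets = 0.057). For Ikzf4 both tested probe sets rose, by 0.82 and 0.96. The brighter Itgae probe set rose by 0.86, while the other gave 0.39 ± 0.28 with overlapping groups and an adjusted p of 0.36, so the Itgae result rests on 1 probe set.

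For Gpr83 both probe sets had lower means in SKG cells, and the dimmer one passed the threshold. It measured 4.95, 5.46 and 6.43 in SKG cells, against 7.41, 7.36 and 6.48 in BALB cells. The groups came close at replicate 3 and did not overlap. Its log2 fold change was -1.47 ± 0.39 with a limma adjusted p over probe sets of 0.024.

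**Figure D4:**
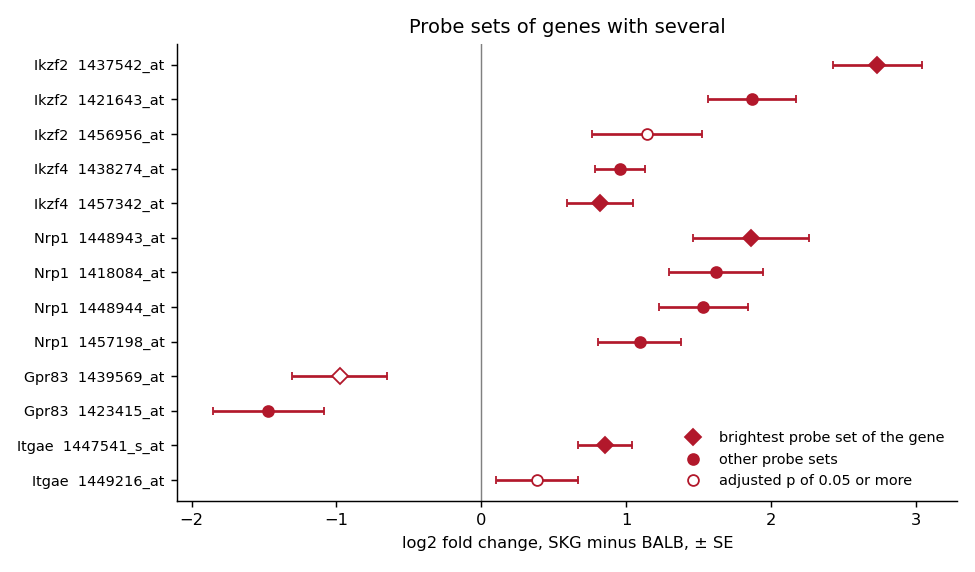
Log2 fold change ± SE, SKG minus BALB, of the 13 tested probe sets of the 5 genes with several, Ikzf2, Ikzf4, Nrp1, Gpr83 and Itgae. Diamonds mark the brightest probe set of each gene. Probe sets of a gene point the same way, and Ikzf2 has the widest range, from 1.15 to 2.74.

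BALB replicate 1 carries the label without the FR4 sort, and its values can be set beside the other BALB arrays without a test. It was above both of them for 4 of the 9 genes (Foxp3, Tnfrsf18, Nrp1 and Izumo1r) and below both for 3 (Ikzf2, Gpr83 and Itgae). Over all genes tested it was above both for 28.6% and below both for 27.8%. It exceeded the mean of the other BALB arrays by 0.11 for Foxp3, by 0.18 for Izumo1r and by 0.55 for Nrp1. These are normalized levels, and the order of the BALB arrays depends on the normalization. As deposited, the sorted BALB replicate 3 was the highest for Foxp3 (83.3, against 69.5 in replicate 1) and for Izumo1r (70.8, against 63.9). That array was also the brightest of the BALB arrays, with a median deposited intensity of 27.7, against 15.7 in replicates 1 and 2. Without BALB replicate 1, 6 of the 9 genes were higher in SKG cells at the threshold, and Ikzf4 lost its call (0.81, limma adjusted p = 0.080). Over all genes, 1913 of 11595 (16.5%) were higher in the main fit, and 1133 to 2206 were higher when any 1 array was left out. In the fit without BALB replicate 1, the log2 fold change of Foxp3 was 1.79 (limma adjusted p = 0.0050) and that of Izumo1r was 0.90 (adjusted p = 0.028).

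Markers of other cells were read beside these genes. Of the T cell markers, Cd3d, Cd3e and Cd4 were above the filter level on every array. The CD8 T cell markers Cd8a and Cd8b1 summed to intensities of 25.3 to 142.6 in SKG cells and 217.3 to 285.9 in BALB cells, and Cd8b1 fell in SKG cells, with a log2 fold change of -2.51. Both are markers of a cell type that can carry Itgae. Cd8a stayed between intensities of 15.3 and 46.9 in SKG cells and between 7 and 15.3 in BALB cells. The part of such cells in the Itgae result was not tested.

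Plasma cell markers summed to 687.9 to 920.7 in SKG cells and 244.8 to 927 in BALB cells, and 1 of 4 tested, Derl3, rose. Dendritic cell markers, which matter for Nrp1 and Itgae, summed to 73.5 to 98.6 in SKG cells and 66.5 to 83.4 in BALB cells. Of these, Zbtb46 rose, 1 of 3 tested, and Flt3 and Xcr1 were below the filter level on all SKG arrays. The B cell, macrophage, platelet, endothelial and erythroid markers tested held no call in this comparison, and the NK cell marker on the array was too dim to be tested. The part of these cells in the results was not tested.

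The actin measure of RNA integrity moved with the groups as well, and the Gapdh measure overlapped between them. The ratio of the 3′ to the 5′ actin control probe sets was 2.12, 1.93 and 2.63 on SKG arrays, against 3.04, 2.95 and 3.98 on BALB arrays, without overlap. On the same arrays the Gapdh ratio ran from 2.57 to 3.03 for SKG and from 2.86 to 3.28 for BALB. Median deposited intensity was 15.7 to 27.7 over the 12 arrays. What the actin ratio contributes to the differences was not tested.

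The second comparison asked how cells of the IFN-γ-deficient transfer differ from those of the IL-6-deficient transfer. Ifng, knocked out in the donors of the IFN-γ-deficient transfer, was lower there, with a mean of 9.41 ± 0.48 against 13.55 ± 0.02 in the IL-6-deficient transfer (SD, n = 3 each), and its log2 fold change was -4.14 (limma adjusted p = 0.0015). Il6 averaged 5.38 ± 1.26 in the IFN-γ-deficient transfer and 6.51 ± 1.31 in the IL-6-deficient transfer, a difference that did not pass (adjusted p = 1). Which part of Il6 its probe set covers is not given in the sources used here, so it checks no label.

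None of the 9 genes passed in this comparison with limma. Of the 11830 genes in this test 14 passed (0.118%), with 8 up (0.0676%) and 6 down (0.0507%), while 511 had an unadjusted p under 0.05. The unadjusted p of Ikzf2 was 0.034, and that of each of the other 8 genes was above 0.05. The median log2 fold change of the 9 genes was 0.22, beside 0.00 over all genes tested. A p above the threshold does not show that the groups were alike.

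Foxp3 stood at 10.70, 11.02 and 10.51 in the IFN-γ-deficient transfer, against 10.53, 10.67 and 10.36 in the IL-6-deficient transfer. These arrays overlapped, with a log2 fold change of 0.22 ± 0.17. Ikzf2 measured 12.78, 12.85 and 12.58 in the IFN-γ-deficient transfer, against 12.48, 12.57 and 12.38 in the IL-6-deficient transfer. Ikzf2 was the gene among the 9 whose groups did not overlap here, by a narrow margin, as was found for 5.39% of genes in that direction and 4.51% in the other, and its log2 fold change was 0.26 ± 0.10. Ikzf4, Ctla4 and Tnfrsf18 differed by 0.20 ± 0.25, 0.11 ± 0.14 and 0.01 ± 0.19.

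Izumo1r gave 8.23, 8.10 and 8.67 in the IFN-γ-deficient transfer, against 7.49, 7.61 and 8.34 in the IL-6-deficient transfer. Replicate 3 was the highest in both groups, and the log2 fold change was 0.52 ± 0.28. Itgae gave 10.88, 11.21 and 11.01 in the IFN-γ-deficient transfer, against 10.44, 10.12 and 11.28 in the IL-6-deficient transfer, with the highest array of all in the IL-6-deficient transfer. Its log2 fold change was 0.42 ± 0.29, and that of Nrp1 was -0.45 ± 0.28.

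Gpr83 was the gene that the replicate block changed here. Its levels were 7.23, 7.03 and 8.28 in the IFN-γ-deficient transfer, against 6.09, 6.28 and 7.58 in the IL-6-deficient transfer. Replicate 3 was high in both groups, so the groups overlapped although each IFN-γ-deficient array exceeded the IL-6-deficient array of the same number. The log2 fold change of 0.87 ± 0.48 had a limma adjusted p of 1 without the block and of 0.024 with it. With the block 0.727% of all genes tested were higher. Replicate 3 of these groups also had high 3′ to 5′ actin ratios, 3.81 in the IFN-γ-deficient transfer and 5.13 in the IL-6-deficient transfer, against 1.60 to 1.67 on the other transfer arrays. No marker of another cell type passed in this comparison.

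The difference between the comparisons was tested over all 12 arrays as the SKG minus BALB difference less the difference between the transfers. Of the 9 genes 4 passed, each with a larger SKG minus BALB difference, beside 8.69% of all 11720 genes, made up of 5.15% in that direction and 3.54% in the other. Ikzf2 differed by 2.47 ± 0.37 (limma adjusted p = 0.0025), although by 0.67 (adjusted p = 0.51) if its probe sets are summarised by their median, and Ctla4 by 2.40 ± 0.50 (adjusted p = 0.012). Nrp1 differed by 2.32 ± 0.55 (adjusted p = 0.022) and Foxp3 by 1.54 ± 0.28 (adjusted p = 0.0071). Ikzf4, Izumo1r and Itgae did not pass, with 0.62 ± 0.35, 0.32 ± 0.34 and 0.44 ± 0.36. Gpr83 gave -1.84 ± 0.63 with an adjusted p of 0.093, and 0.0025 with the block. Tnfrsf18 gave -0.48 ± 0.27 with an adjusted p of 0.31, and 0.0098 with the block. With the block 10.8% of all genes were lower.

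The order of the 4 groups differed between genes, and is given as a description. Age and the labelled stimulation differ between the 6 transfer arrays and the SKG and BALB arrays. Tissue and sort differ too, except that BALB replicate 1 is labelled as spleen and lymph node without the sort. These effects cannot be told apart. The stimulation-induced gene Il2 averaged 13.32 and 13.21 in the IFN-γ-deficient and IL-6-deficient transfers, beside 13.35 in SKG and 13.20 in BALB cells. In that order, Egr2 averaged 12.90, 12.90, 12.92 and 12.93, Tnf 10.30, 10.41, 12.17 and 12.47, and Fos 10.34, 11.00, 11.50 and 12.76. Whether the transfer cells had been stimulated was not tested. Foxp3, Ikzf4, Izumo1r and Itgae shared 1 order, with the IFN-γ-deficient transfer highest, then the IL-6-deficient transfer, SKG and BALB. For these genes the transfers overlapped each other, and every other neighbouring pair was separate. Ikzf2 had the same order with no overlap between neighbours. The mean over the 6 transfer arrays exceeded the SKG mean by 2.42 for Foxp3, 2.04 for Ikzf4, 0.92 for Izumo1r and 0.75 for Ikzf2. For Itgae that gap was 3.73, so its SKG and BALB levels were close to each other by comparison. The T cell markers Cd4 and Cd3e also had higher means in the transfers. Cd4 averaged 8.21 in the IFN-γ-deficient and 8.45 in the IL-6-deficient transfer, beside 6.89 in SKG and 6.67 in BALB cells. In that order, Cd3e averaged 9.17, 9.21, 7.94 and 7.32, and Cd3d 10.73, 10.79, 10.72 and 10.56. What this adds to the gaps was not tested.

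Ctla4 and Nrp1 differed from that picture. Ctla4 overlapped across the IFN-γ-deficient transfer, the IL-6-deficient transfer and SKG, with means of 12.85, 12.74 and 12.63, and only BALB stood apart at 10.11. Nrp1 averaged 8.02 in the IL-6-deficient transfer, 7.80 in SKG cells and 7.56 in the IFN-γ-deficient transfer, which overlapped, and 5.93 in BALB cells. For Tnfrsf18 the lowest group was SKG, at 10.61, below BALB at 11.09 and the transfers at 11.37 each, with overlap among the last 3. Gpr83 overlapped along its whole order, from 7.52 in the IFN-γ-deficient transfer through 7.34 in BALB and 6.65 in the IL-6-deficient transfer to 6.36 in SKG cells.

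Among the other genes of regulatory T cells, effector and suppressor genes were mostly higher in SKG cells. Of 12 tested, 8 were higher, 1 was lower and 3 did not pass, beside 16.5% higher and 12.3% lower over the whole test. Among the 8 is Nt5e, whose BALB mean of 4.66 lay below the filter level, so that it was tested only through its SKG mean of 5.68 and had to differ. Leaving it aside, 7 of 11 were higher. The median log2 fold change of the 12, Nt5e included, was 1.0, beside 0.06 over the whole test. Gzmb, the gene of the cytotoxic protease granzyme B, averaged 13.25 in SKG cells and 10.05 in BALB cells, a log2 fold change of 3.19 ± 0.22 (limma adjusted p = 7.1e-05). Fgl2, a secreted fibrinogen-like protein with suppressive activity, had a log2 fold change of 2.65 ± 0.35 (adjusted p = 0.0011). With a constant of 64 it was 1.64. Icos, a costimulatory receptor, had one of 1.59 ± 0.12 (adjusted p = 0.00010). Tgfb1, which encodes a cytokine that induces Foxp3, was the gene that fell, with a mean of 7.63 in SKG cells and 9.07 in BALB cells and a log2 fold change of -1.45 ± 0.16 (adjusted p = 0.00055). With the median of its probe sets Tgfb1 gave -0.94.

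The receptors related to GITR gave 1 higher and 1 lower of 4 tested, beside 16.5% and 12.3% over the whole test. With 4 genes this does not set them apart from that background. Tnfrsf4 (OX40) was higher with a log2 fold change of 1.14 ± 0.11 (limma adjusted p = 0.00027). Tnfrsf1b (TNFR2) was lower with one of -0.93 ± 0.18 (adjusted p = 0.0064), or -0.52 with the median of its probe sets. Tnfrsf9 passed with the replicate block only, at 0.98 (adjusted p = 0.069, and 0.00050 with the block).

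Genes that regulate Foxp3 or the identity of regulatory T cells moved both ways, with 5 higher, 7 lower and 6 not passing of 18 tested, beside 16.5% higher and 12.3% lower over the whole test. Their median was -0.35, beside 0.06 over the whole test. With the block Stat5b also passed, at -0.49 (adjusted p = 0.078, and 0.021 with the block). This made 8 lower of 18, beside 15.4% lower over the whole test with the block. The forkhead factors Foxo3 and Foxo1, which act on the Foxp3 gene, fell in SKG cells, with log2 fold changes of -1.72 ± 0.16 and -1.0 ± 0.18 (limma adjusted p = 0.00023 and 0.0038). Lef1, a factor of naive T cells, gave -1.27 ± 0.18 (adjusted p = 0.0014). Stat5a, which carries the interleukin 2 signal, gave -0.71 ± 0.11 (adjusted p = 0.0027). None of the 3 other Ikaros family genes tested passed, so Ikzf2 and Ikzf4 were the members of that family with a call. With the block Ikzf3 also passed, at 0.78 (adjusted p = 0.067, and 0.0033 with the block).

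Of 11 ligands and partners of the proteins, 6 were higher and 0 lower, beside 16.5% and 12.3% over the whole test. Their median was 0.71, beside 0.06 over the whole test. Itgb8, an integrin chain that pairs with the product of Itgav to activate latent TGF-β, averaged 9.21 in SKG cells and 5.87 in BALB cells, a log2 fold change of 3.34 ± 0.41 (limma adjusted p = 0.00082). Itgav gave 0.98 ± 0.21 (adjusted p = 0.0083). Lrba, which protects CTLA-4 from degradation, gave 0.95 ± 0.19 (adjusted p = 0.0058), and Trat1, an adaptor that brings CTLA-4 to the surface, gave 1.33 ± 0.26 (adjusted p = 0.0059). With probe sets summarised by their median, the calls of Itgav (0.35, adjusted p = 0.32) and Lrba (0.24, adjusted p = 0.41) were lost.

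Tissue and effector genes gave 3 rises in SKG cells and 0 falls among 7 tested, beside 16.5% and 12.3% over the whole test, and a median of 0.79, beside 0.06. These were Socs2 at 2.08 ± 0.18 (limma adjusted p = 0.00017), the actin-capping gene Capg at 1.54 ± 0.16 (adjusted p = 0.00040) and the chemokine receptor gene Ccr4 at 1.46 ± 0.23 (adjusted p = 0.0022). The Socs2 value was 0.39 (adjusted p = 0.23) and no longer passed with median probe sets, and Ccr4 was 0.97 with a constant of 64. With the block Klrg1 also rose, at 0.79, and Ccr8 also fell, at -0.80. Of the folate genes, Slc19a1 alone was bright enough to be tested and gave 0.53 (adjusted p = 0.069, and 0.013 with the block).

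Genes induced by T cell stimulation were not uniformly higher or lower, with 2 higher and 4 lower of 10 tested, beside 16.5% and 12.3% over the whole test. The share that was higher is near that background. Their median was -0.28, beside 0.06 over the whole test. Nr4a1, Fos and Nr4a3 fell in SKG cells by log2 fold changes of -1.17, -1.26 and -0.46 (limma adjusted p = 0.00013, 0.0012 and 0.0043). Egr1 rose by 0.88 (adjusted p = 0.0018). The calls of Fos, Egr1 and Nr4a3 were lost when all 12 arrays were fitted together (adjusted p = 0.25, 0.21 and 0.24). Those of Egr1 and Nr4a3 were also lost without normalization (adjusted p = 0.081 and 0.27), and Nr4a3 was -0.76 with the median of its probe sets. With the block Cd69 (-0.26, adjusted p = 0.022) and Tnf (-0.30, adjusted p = 0.020) also passed, which made 2 higher and 6 lower, beside 20.9% and 15.4% over the whole test.

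In the transfer comparison Ifng was lower and no other gene of these 8 lists passed without the block. With it, Gata3 (-0.68), Nr4a1 (-0.44) and Fos (-0.66) passed with a lower mean in IFN-γ-deficient cells, and Itgb8 (0.90), Capg (0.57) and Klrg1 (0.61) with a higher one. Their adjusted p with the block ran from 0.0070 for Capg to 0.040 for Klrg1. Sema4a, a semaphorin, was also lower with the block, at -0.77 (adjusted p = 0.0497).

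**Figure D5:**
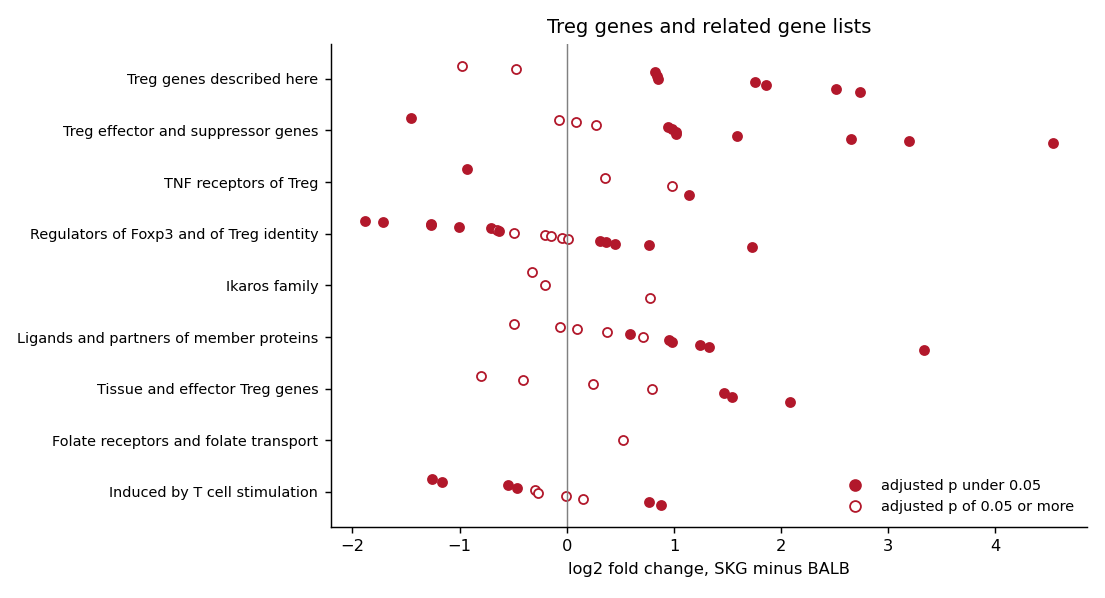
Log2 fold change, SKG minus BALB, of each tested gene in the set of 9 and in 8 related gene lists, with filled points for an adjusted p under 0.05. The effector and suppressor genes lie mostly above 0 with Tgfb1 at -1.45 below it, and regulators of Foxp3 lie on both sides of 0.

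The genes whose pattern over the 4 group means was most like that of Foxp3, among 11711 genes, were Cd160, Lgals1, S100a6, Ncf4 and Mki67. Likeness was the root mean square difference after each gene was centred, and ran from 0.20 to 0.31 on the log2 scale. For Izumo1r these were Fcrl1, Slc25a24, Ctsz, Cdkn2b and Dstn, with 0.034 to 0.094. Each rests on 4 means.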

How the data were processed

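The authors deposited linear intensities of 45101 probe sets on each array. RNeasy isolation and labelling by in vitro transcription are stated in the labels' protocols. Software and scaling: not given in the sources used here. From these intensities, 64 control probe sets were removed, log2(intensity + 16) was taken and the 12 arrays were quantile normalized together. The probe annotation gave 1 gene for 34958 probe sets, several for 932, and does not list 9211. Symbols were updated by gene ID to GRCm38.p6 for 34754. A gene took the values of its brightest probe set, by the mean of all 12 arrays.

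Fits used the 6 arrays of a comparison, or all 12 for the difference between comparisons, in limma 3.58.1 in R 4.3.3 (lmFit, eBayes with an intensity trend, two-sided, Benjamini-Hochberg over all genes tested). The fits were tested on simulated data. The arrays' number limits the precision.

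Members and gene lists were chosen with earlier results of these data known. All members are named, and from each list the 4 passing genes with the smallest p. Likeness took the 5 nearest genes for Foxp3 and Izumo1r. Additional list genes are named where the replicate block changed a call within a comparison, but not for the difference between the comparisons.

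Replicate numbers come from the sample titles. Deviations of same-numbered arrays had correlations of 0.14, 0.21 and 0.34 (SKG with BALB) and of 0.48, 0.47 and 0.71 (transfers). Most of this set replicate 3 apart: replicates 1 and 2 of different groups correlated about as much, at 0.17 to 0.18 and at 0.43 to 0.46. The values therefore do not show that equal numbers are pairs. The block treats them as pairs and is an alternative to the main fit. Blocked values are given where they change a call of a member, or of a list gene within a comparison.

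Alternatives were other constants (1 and 64), other filters, normalizations, probe set rules and fits, the replicate block, each array left out, and replicates 1 and 2 only.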

Additional observations from a re-analysis of the deposited data

Results flagged for a closer look

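For 4 of the 9 regulatory T cell genes and 12 genes of the related lists, the SKG minus BALB difference was not the same as the difference between the IFN-γ-deficient and the IL-6-deficient transfer, in limma's interaction test over all 12 arrays. Values are the first difference less the second, on the log2 scale. Among the 9 genes these were 2.47 for Ikzf2, 2.40 for Ctla4, 2.32 for Nrp1 and 1.54 for Foxp3. Over all 11720 genes in this test, 8.69% passed. Effector and suppressor genes gave 3 positive values past the threshold of 12 tested, and TNF receptors 1 positive and 1 negative of 4. Regulators gave 1 positive and 2 negative of 18, partners 2 positive of 11, tissue genes 1 positive of 7 and stimulation genes 1 positive of 10. No other Ikaros family gene and no folate gene passed.

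Among effector and receptor genes, Fgl2 gave 3.15, Gzmb 2.93, Icos 1.51 and Tnfrsf4 1.09, while Tnfrsf1b gave -0.99. Among regulators, Prdm1, the gene of the repressor Blimp, gave 1.59, whereas Foxo3 gave -1.56 and Bach2, a repressor that restrains effector programmes, gave -1.98. Itgb8 gave 2.43, the CTLA-4 ligand gene Cd86 gave 2.08 and Socs2 gave 1.71. Ifng gave 4.91, and its knockout in the IFN-γ-deficient transfer enters that value. The adjusted p ran from 9.2e-06 for Ifng to 0.042 for Itgb8.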

How the results depend on the processing

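In SKG against BALB, 6 to 7 of the 9 genes were higher at the threshold under every alternative run. The count of lower genes was 0, but 1 when probe sets were summarised by their median, 2 with the replicate block, 2 with replicates 1 and 2 only, and 0 to 1 when an array was left out. Ikzf2 missed the threshold with median probe sets (adjusted p = 0.052) and Ikzf4 without a filter (0.067). In the transfer comparison the count of higher genes was 0, but 1 with the replicate block and 4 with replicates 1 and 2 only (Ikzf2, Izumo1r, Gpr83 and Itgae). Signs turned for log2 fold changes near 0 there: Ctla4 to -0.0044 and Tnfrsf18 to -0.11 without normalization, Tnfrsf18 to -0.0091 with trimmed mean scaling and to -0.0014 with replicates 1 and 2 only. Leaving out an array gave -0.16 to 0.16 for Tnfrsf18, -0.012 to 0.22 for Ctla4 and -0.011 to 0.42 for Ikzf4. In the difference between the comparisons, 1 gene was lower with median probe sets and 2 with the replicate block, and Ikzf2 lost its call with the median (adjusted p = 0.51). The causes were not tested. Over all genes, SKG against BALB gave 1133 to 2857 higher and 847 to 2471 lower, and the transfer comparison gave 1 to 268 higher and 1 to 253 lower. With a constant of 64 the SKG minus BALB log2 fold changes were 0.58 for Izumo1r, 0.58 for Itgae, 1.32 for Nrp1 and -0.66 for Gpr83. With 3 arrays per group and dim SKG and BALB signals for Ikzf4, Itgae, Izumo1r, Gpr83 and Nrp1, small differences are not resolved.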

Other observations

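Some of these genes lie next to each other, or next to genes of the related lists, with no protein-coding gene between them in RefSeq (GRCm38.p6). On chromosome 4, Tnfrsf18 gave a log2 fold change of -0.48 between SKG and BALB cells (limma adjusted p = 0.065), while its neighbour Tnfrsf4 rose by 1.14 (adjusted p = 0.00027). On chromosome 9, Gpr83 gave -0.98 (adjusted p = 0.055) beside a rise of 0.84 for Izumo1r (adjusted p = 0.0087). On chromosome 1, Ctla4 and Icos rose by 2.52 and 1.59, whereas Cd28, on the other side of Ctla4, gave 0.09 (adjusted p = 0.63). Differences between neighbours were not tested.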
